A study of Marchantia polymorpha and Klebsormidium nitens with 125 samples.

Results

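In the liverwort Marchantia polymorpha, 32 genes had less messenger RNA after nitrate, phosphate and sucrose starvation alike. They were chosen from the time-course libraries of the wild-type strain Tak-1. Counts were converted to CPM (the usual counts-per-million scale, taken over the whole library), group means were taken over 3 libraries, and each starved mean plus 1 CPM was divided by the control mean plus 1 CPM. A gene was kept when this ratio was 0.6 or less in all 3 starved groups and when it had 5 CPM or more in control. Of 19355 genes counted, 10074 had 5 CPM or more in control, and 34 of these met the ratios. The rule leaves out 3 named genes, not all of which met the ratios and level, and 32 genes were left. Since starved and control values chose these genes, those values are given as a description, with no test.

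Whole gemmalings, the young plants that grow from gemmae (small clonal buds), were cultured for 7 days in full Yamagami medium. They then spent 5 days in medium with 1% of the usual nitrate, with 1% of the usual phosphate, or with 0% of the usual sucrose. Further starved plants were returned to full medium for 6, 24 or 72 h, and control plants stayed in full medium throughout. A second set of libraries took 3 mutant lines, Mpcsd-2, Mperf20-21 and Mphd9-14, through the same 3 starvations beside their own full-medium controls. The submitters call the lines knock-outs of the transcription factors MpCSD, MpERF20 and MpHD9. Another set held the 3 mutants and Tak-1 in full medium. Every group had 3 libraries except sucrose-starved Mperf20-21, which had 2. Each mutation was represented by 1 line. Nothing in the labels tells if replicates were grown apart, and the p-values therefore measure the spread between these libraries, which may be technical. The age of the control plants at harvest is not given in the labels. No starved Tak-1 library stood in the table of starved mutants, so the response of a mutant was not tested against that of Tak-1.

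Library totals were 19930892 to 38992957 counts in the time course, 16878159 to 28439838 in the starved-mutant set and 20161746 to 27511775 in the full-medium set. The targeted genes were still transcribed: MpCSD had 661 ± 12 CPM in Mpcsd-2 and 834 ± 32.5 CPM in Tak-1, MpERF20 had 6.76 ± 0.546 CPM in Mperf20-21 and 12.1 ± 1.45 CPM in Tak-1, and MpHD9 had 33.7 ± 1.75 CPM in Mphd9-14 and 47.8 ± 1.96 CPM in Tak-1 (SD, n = 3 each). Counts over a whole gene do not check a small edit. MpRBCS, the small subunit of Rubisco and a marker of green tissue, had 495 to 510 CPM in control Tak-1 libraries. It was lower in nitrate-starved (377 to 434 CPM) and phosphate-starved libraries (349 to 457 CPM). Sucrose-starved libraries, at 435 to 517 CPM, overlapped control. Some libraries stood high for the 32 genes. Phosphate-starved replicate 2 was the highest of its group for 22 of the 32, against 35.4% of genes averaging 5 CPM or more over the table. Control replicate 2 was highest for 23, against 31.2% of such genes, and Mpcsd-2 control replicate 2 for 23, against 44.6%. Without phosphate-starved replicate 2, 44 genes would have met the rule, and without control replicate 2, 24. These are whole plants, so fewer cells of a type and less RNA per cell cannot be told apart.

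As background, plants take up nitrate as a nitrogen source and phosphate for nucleic acids, membranes and energy transfer, while sucrose in an axenic medium is a carbon source added to photosynthesis. Starvation for one nutrient usually brings responses particular to it, such as its own uptake systems, together with responses shared between nutrients, such as slower growth. Of the 32, 31 were found in the RefSeq gene table and 8 carried a symbol. Of these 8, MpHA5 and MpHA11 are named as plasma membrane proton pumps (H+-ATPases), which energise nutrient uptake and acidify the cell wall. MpMATE9 is named as a multidrug and toxin extrusion transporter and MpABCG13 as an ABC transporter of the G subfamily. MpPPO8 is named as a polyphenol oxidase, an enzyme class that oxidises phenolics. MpCupin83 belongs to the cupins, a broad family of small barrel-fold proteins. MpRLK-Pelle_SD-2b1 is a receptor-like kinase, and MpSUVR4 is named after Arabidopsis SUVR4, a histone methyltransferase. The other 24 have no symbol there and are given by locus.

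The 32 genes lay at a median ratio to control of 0.4 in nitrate-starved, 0.486 in phosphate-starved and 0.391 in sucrose-starved plants. Among all 10074 genes, 1.92% were at 0.6 or less after nitrate starvation, 0.993% after phosphate starvation and 2.94% after sucrose starvation. The lowest ratio of any member was 0.154 under nitrate starvation (MpCupin83), 0.167 under phosphate starvation (Mp1g07680) and 0.0738 under sucrose starvation (Mp2g18760). In single libraries, all 3 nitrate-starved values lay below all 3 control values for 32 of 32 genes, all phosphate-starved values for 28 and all sucrose-starved values for 31. The same libraries chose the genes, so the rule favoured such separation, and its share over all genes was not counted. Starved and control libraries overlapped under phosphate starvation for Mp2g18760, Mp4g08480, Mp5g24130 and MpPPO8, and under sucrose starvation for Mp2g07510. The summed level of 9 markers of dividing cells was lower too, at 121 to 164 CPM in nitrate-starved, 142 to 175 CPM in phosphate-starved, 96.5 to 125 CPM in sucrose-starved and 186 to 199 CPM in control libraries. MpNOP1, a marker of air chambers, was higher in starved plants. It had 130 to 139 CPM with nitrate, 109 to 120 CPM with phosphate and 128 to 144 CPM with sucrose starvation, against 101 to 107 CPM in control. The part of these markers in the selection was not tested.

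**Figure D1:**
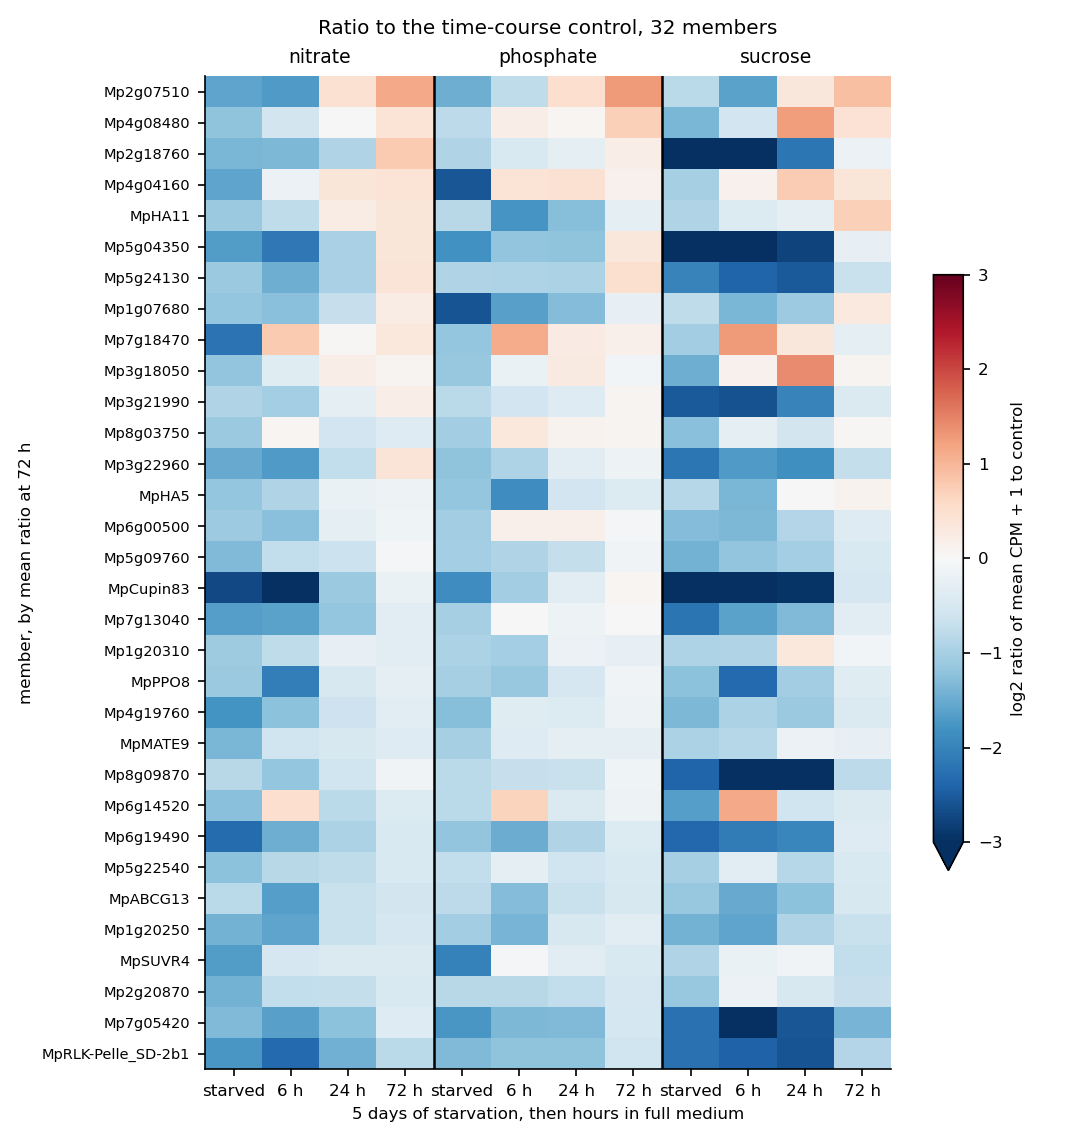
Heat map of the 32 genes (rows, ordered by their mean ratio at 72 h) in starved and resupplied Tak-1 plants (columns, by nutrient and hour). Colour is the log2 ratio of mean CPM plus 1 to control (n = 3 libraries per group); values beyond the end of the scale share the darkest blue. Most rows pale towards 72 h, Mp7g18470 and Mp6g14520 turn red at 6 h in every nutrient, and the 24 h columns are bluest for sucrose (median ratio 0.516).

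MpCupin83 showed the deepest fall on average. Its nitrate-starved libraries had 8.1, 15.9 and 45 CPM, its phosphate-starved libraries 15.1, 15.5 and 94.8 CPM, its sucrose-starved libraries 6.79, 17.9 and 28.2 CPM, and its control libraries 132, 140 and 194 CPM. No starved library reached a control library, and the value of 94.8 CPM came from the phosphate-starved replicate that stood high for most of the genes. Of 31 cupin genes tested in the mutants, itself included, 2 fell and 5 rose in sucrose-starved Mpcsd-2, 3 fell and 3 rose in Mperf20-21, and 7 fell and 4 rose in Mphd9-14 (edgeR adjusted p under 0.05). Among all genes tested, 10.9% fell and 15.3% rose in Mpcsd-2, 6.96% and 8.38% in Mperf20-21, and 9.99% and 12.4% in Mphd9-14.

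The proton pump genes among the members, MpHA5 and MpHA11, were lowered by less. They were weakly expressed beside the strongest members of their family. In Tak-1 of the full-medium set they averaged 4.69 and 4.67 CPM, against 719 CPM for MpHA4 and 694 CPM for MpHA2. Some pump genes were lower still there, such as MpHA6 at 2.59 CPM. In the time-course control MpHA5 and MpHA11 averaged 21.8 and 16.8 CPM. Their fall therefore does not describe proton pump RNA as a whole. MpHA5 had 8.57, 9.26 and 9.54 CPM in nitrate-starved, 8.89, 8.9 and 10 CPM in phosphate-starved, 10.4, 11.8 and 12.9 CPM in sucrose-starved and 19.3, 22.2 and 23.7 CPM in control libraries. MpHA11 had 4.77, 6.94 and 10.1 CPM in nitrate-starved, 7.89, 8.93 and 9.99 CPM in phosphate-starved, 7.32, 8.58 and 9.87 CPM in sucrose-starved and 12.8, 16.9 and 20.7 CPM in control libraries. MpHA11 spread more between libraries than MpHA5, and neither gene had a starved library within its control range. Both sit in tandem groups of pump genes, MpHA11 between MpHA13 and MpHA12 and MpHA5 beside MpHA14, so reads of near-identical stretches could have been split among copies.

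The remaining genes with a symbol kept apart from control too, with the exception of MpPPO8. MpMATE9 averaged 4.6 to 6.54 CPM over the 3 starved groups and 13.6 CPM in control. MpABCG13 averaged 4.95 to 6.62 CPM in starved plants and 12.1 CPM in control, close to the limit of the rule. MpRLK-Pelle_SD-2b1 averaged 4.17 to 8.71 CPM in starved plants and 23.4 CPM in control. MpSUVR4 had 0.55, 0.554 and 0.753 CPM in phosphate-starved libraries and 4.36, 5.25 and 7.23 CPM in control libraries. MpPPO8 had 1.14, 1.61 and 7.51 CPM in phosphate-starved libraries and 6.66, 7.33 and 9.32 CPM in control libraries, where 1 starved library overlapped control.

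MpSUVR4 and Mp4g04160 are neighbours in the gene order, with 0 genes between them, and both were lowest under phosphate starvation. Mp4g04160 had 16.3, 16.9 and 25 CPM in phosphate-starved, 35.3, 37.9 and 43.3 CPM in nitrate-starved, 51.1, 56.5 and 71.1 CPM in sucrose-starved and 108, 120 and 129 CPM in control libraries. The 4 groups did not overlap for it. Mp1g20250 and Mp1g20310 are also near each other, with 4 genes between them. The 31 genes in the gene table were spread over 8 chromosomes, with 2 to 6 on each.

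The limit of 0.6 cut through a continuous range. Just inside it were Mp5g22540 (highest of its 3 ratios 0.596), Mp1g07680 (0.588) and MpABCG13 (0.581). Just outside were Mp6g00480 (0.604), Mp1g16520 (0.605) and Mp5g23760 (0.607). A limit of 0.5 would keep 14 genes and a limit of 0.7 would keep 101.

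The course of the genes after resupply was then followed. At 72 h, 20 of 32 genes had a ratio to control of 0.8 or more after nitrate resupply (all genes 95.8%), 23 after phosphate resupply (97.3%) and 13 after sucrose resupply (93.5%). At 6 h the numbers were 4 for nitrate (all genes 88.8%), 10 for phosphate (89.2%) and 7 for sucrose (79.2%), and at 24 h they were 10 (94%), 13 (94.9%) and 10 (84.4%). The median ratio at 6, 24 and 72 h was 0.434, 0.644 and 0.889 for nitrate, 0.576, 0.745 and 0.91 for phosphate, and 0.386, 0.516 and 0.765 for sucrose. These ratios share the control libraries that chose the genes and are a description.

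Contrasts between resupply times left out the control and starved libraries that chose the genes, and were tested. Those libraries still entered the shared filter, scaling and estimate of spread. Between 6 and 72 h, 24 of 32 genes rose after nitrate resupply and 1 fell, where 16.8% of the 13504 genes tested rose and 16.9% fell (edgeR quasi-likelihood test, adjusted p under 0.05). After sucrose resupply 24 rose and 4 fell (all genes 28.1% and 27.1%). After phosphate resupply 13 rose and 2 fell (13.3% and 11.2%). Between 6 and 24 h, 16 rose and 3 fell with nitrate (13.1% and 13%), 12 rose and 3 fell with sucrose (25.2% and 23.7%), and 6 rose and 2 fell with phosphate (10.2% and 8.33%). The median log2 change from 6 to 72 h was 1.19 for nitrate, 0.70 for phosphate and 1.29 for sucrose, against medians over all genes of at most 0.0105. Marker levels also moved between these times. MpRBCS had 403 to 441 CPM at 72 h and 311 to 369 CPM at 6 h of nitrate, 440 to 481 CPM at 72 h and 481 to 506 CPM at 6 h of phosphate, and 451 to 517 CPM at 72 h and 173 to 259 CPM at 6 h of sucrose resupply. The summed level of 3 oil body markers was 68.2 to 69.3 CPM at 72 h and 81.9 to 94.3 CPM at 6 h of nitrate, 67.1 to 78.4 CPM at 72 h and 89.3 to 105 CPM at 6 h of phosphate, 57.3 to 72.9 CPM at 72 h and 104 to 157 CPM at 6 h of sucrose resupply, and 71.4 to 85.3 CPM in control. The 9 markers of dividing cells summed to 143 to 172 CPM at 72 h and 182 to 219 CPM at 6 h of nitrate resupply. With phosphate they had 177 to 183 CPM at 72 h and 155 to 168 CPM at 6 h. With sucrose they had 154 to 167 CPM at 72 h and 165 to 171 CPM at 6 h, against 186 to 199 CPM in control. The part of these markers in the changes was not tested. Plants at 72 h were also older than plants at 6 h, and no starved plants were moved without resupply. Age, hour of day and the transfer itself therefore cannot be told apart from the nutrient in these changes. Whichever 1 library was left out, 20 of the 25 calls at 72 h were kept for nitrate, 11 of 15 for phosphate and 24 of 28 for sucrose. In either direction, 33.7%, 24.5% and 55.1% of all genes were called at 72 h, and 26.1%, 18.5% and 48.9% at 24 h. The count of genes raised by 24 h was less firm: it was 9 without nitrate 6 h replicate 3 and 3 without phosphate 6 h replicate 2.

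**Figure D2:**
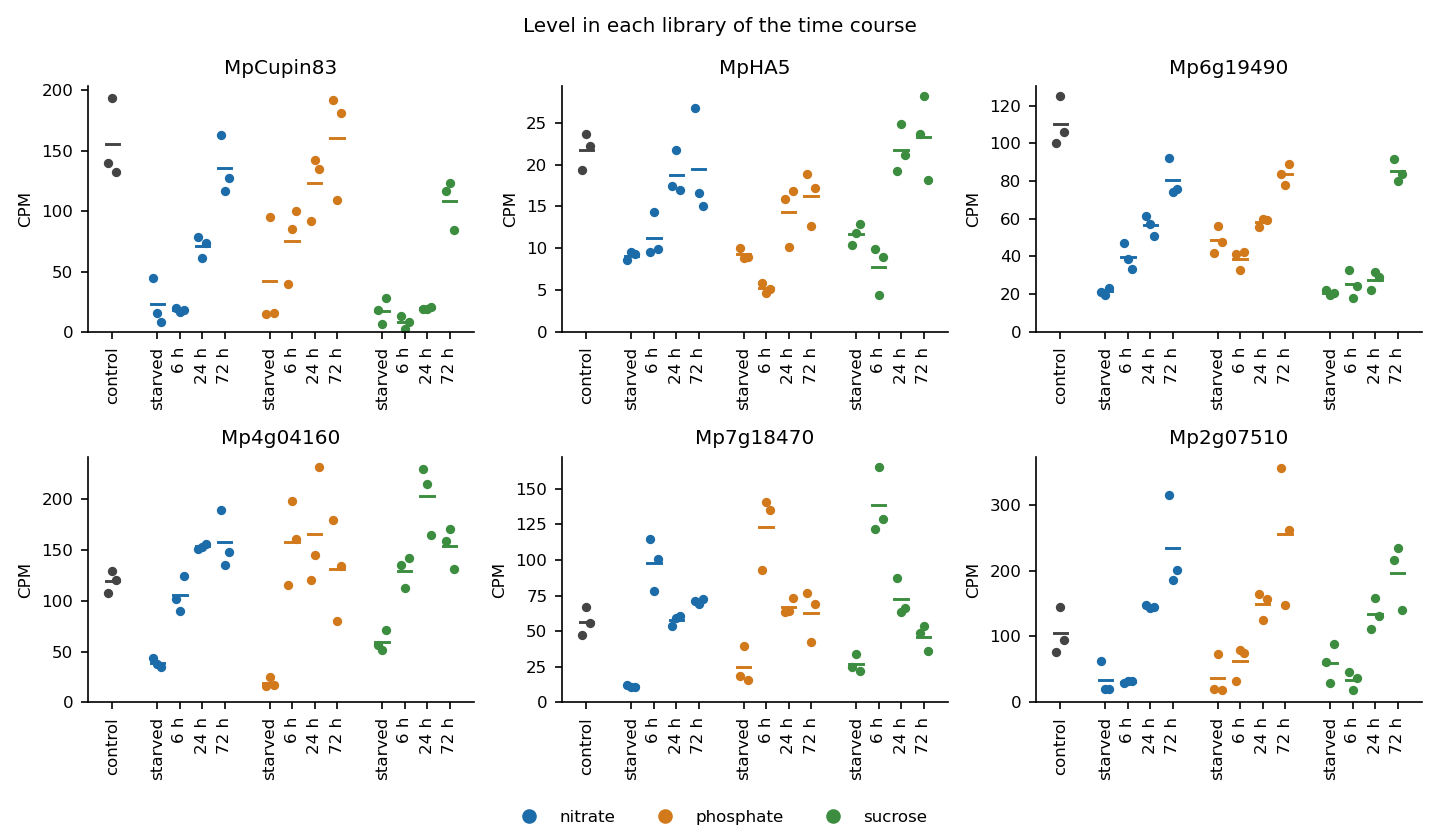
CPM of 6 members in each library of the time course (points) with group means (bars), from control through starvation to 72 h of resupply, n = 3 per group. MpCupin83, MpHA5 and Mp6g19490 climb over hours to days, Mp4g04160 is back at control levels by 6 h, Mp7g18470 peaks at 6 h and Mp2g07510 ends above control.

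In all 3 nutrients, 13 genes rose between 6 and 72 h, among them MpHA5, MpHA11, MpABCG13, Mp6g19490, Mp1g20250, Mp2g07510 and Mp5g04350. The share of all genes that rose in all 3 was not counted. Mp6g19490 had 80.2, 83.5 and 91.6 CPM at 72 h and 18.2, 24.6 and 32.7 CPM at 6 h of sucrose resupply, a log2 change of 1.84 ± 0.16 (SE, edgeR adjusted p = 6.03e-11). With nitrate it rose by 1.09 ± 0.15 (adjusted p = 3.02e-06) and with phosphate by 1.14 ± 0.15 (adjusted p = 2.08e-06). Its groups at 6 and 72 h did not overlap in any nutrient.

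MpHA5 and MpHA11 differed between nutrients at 6 h. MpHA5 had 9.51, 9.91 and 14.3 CPM at 6 h of nitrate resupply and 4.65, 5.15 and 5.81 CPM at 6 h of phosphate resupply, a log2 difference of 1.09 ± 0.25 (SE, edgeR adjusted p = 0.0023). MpHA11 differed in the same direction, by 1.15 ± 0.30 (adjusted p = 0.0081, lost without nitrate 6 h replicate 3), and at 24 h by 1.65 ± 0.28 (adjusted p = 0.0143). After phosphate resupply both pumps had lower mean ratios at 6 h (0.273 for MpHA5, 0.293 for MpHA11) than in starved plants (0.451 and 0.559). From 6 to 72 h of phosphate resupply MpHA5 rose by 1.68 ± 0.24 (adjusted p = 7.26e-06) and MpHA11 by 1.71 ± 0.30 (adjusted p = 8.7e-05). Of 15 proton pump genes tested, a list drawn up after the members were known, 7 rose and 1 fell in that contrast (all genes 13.3% and 11.2%).

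A few genes did not follow this slow rise over the hours after resupply. Mp4g04160, Mp6g14520, Mp7g18470 and Mp8g03750 were at 0.8 of control or more by 6 h in every nutrient. Mp7g18470 had 78, 101 and 115 CPM at 6 h of nitrate, 93.1, 135 and 141 CPM at 6 h of phosphate and 122, 129 and 165 CPM at 6 h of sucrose resupply, against 47.6, 56 and 66.8 CPM in control. Every 6 h library stood above every control library. From 6 to 72 h it fell by 1.49 ± 0.24 on the log2 scale with sucrose (SE, edgeR adjusted p = 4.8e-06) and by 0.93 ± 0.24 with phosphate (adjusted p = 0.00423), and it was not called with nitrate.

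Mp6g14520 behaved alike, with 71.2, 72 and 113 CPM at 6 h of sucrose resupply, 10.1, 11 and 13.1 CPM in sucrose-starved and 33.6, 39.4 and 41.2 CPM in control libraries. It was the single gene lowered from 6 to 72 h in all 3 nutrients, by 0.88 ± 0.18 for nitrate (edgeR adjusted p = 0.000425), 0.80 ± 0.18 for phosphate (adjusted p = 0.00147) and 1.52 ± 0.19 for sucrose (adjusted p = 4.02e-08). Its 24 h libraries were already down, and in each nutrient the change from 6 to 24 h was called too, at -1.29, -1.12 and -1.69.

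Other genes overshot later. Mp2g07510 reached 186, 201 and 314 CPM at 72 h of nitrate, 148, 262 and 356 CPM at 72 h of phosphate and 140, 216 and 234 CPM at 72 h of sucrose resupply, against 76.4, 94.4 and 145 CPM in control. The sucrose range overlapped control by 1 library, and the other 2 nutrients did not overlap it. Mp3g18050 had 28.2, 31.6 and 33.5 CPM at 24 h of sucrose resupply, against 11, 13.6 and 14.1 CPM at 24 h of nitrate resupply, a log2 difference of 1.30 ± 0.22 (SE, edgeR adjusted p = 0.000171).

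At 6, 24 or 72 h, 12 genes had reached 0.8 of control in all 3 nutrients, and 5 had not reached it at any of these times in any nutrient: Mp1g20250, Mp6g19490, Mp7g05420, MpABCG13 and MpRLK-Pelle_SD-2b1. The shares of all genes doing either were not counted. MpRLK-Pelle_SD-2b1 had 12.3, 13.4 and 13.4 CPM at 72 h of nitrate, 12.1, 16.1 and 17.1 CPM at 72 h of phosphate and 10.5, 13 and 13.3 CPM at 72 h of sucrose resupply, and 19.1, 24.5 and 26.6 CPM in control. All 9 resupplied libraries stayed below the lowest control library. It rose with 2 of the nutrients, by 1.85 ± 0.28 from 6 to 72 h of nitrate (edgeR adjusted p = 1.29e-05) and 1.91 ± 0.29 of sucrose resupply (adjusted p = 2.04e-06). Over phosphate resupply the change was 0.69 ± 0.26 and was not called (adjusted p = 0.0545).

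Levels at 24 h were lowest after sucrose. At that time 16 genes were lower after sucrose than after phosphate resupply and 4 were higher (all genes 8.63% and 12.6%), and 11 were lower after sucrose than after nitrate resupply and 2 higher (9.8% and 14.2%). These comparisons were chosen after the levels had been seen. At 24 h nitrate and phosphate resupply differed in 1 gene, MpHA11 (higher 0.0148% of all genes), and that call was lost without nitrate replicate 2, phosphate replicate 2 or phosphate replicate 3. At 6 h, 16 genes were lower after sucrose than after phosphate resupply and 3 higher (19.9% and 21.4%), 8 were lower and 3 higher after sucrose than after nitrate (16.9% and 17.6%), and 6 were lower and 2 higher after nitrate than after phosphate (7.64% and 8.11%). Counts of genes differing between nutrients moved with single libraries: 20 for sucrose against phosphate at 24 h became 13 without sucrose replicate 2, 11 for sucrose against nitrate at 6 h became 7 without sucrose replicate 2, and 8 for nitrate against phosphate at 6 h became 14 without phosphate replicate 1. With the 6 libraries of the contrast alone, sucrose against nitrate gave 6 genes at 6 h and 20 at 24 h.

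Mp5g04350 and Mp8g09870 were among the genes low after sucrose resupply. Mp5g04350 had 0, 0 and 0.0927 CPM at 6 h, 0.406, 0.831 and 1.26 CPM at 24 h and 8.23, 9.65 and 10.6 CPM at 72 h of sucrose resupply, where control had 6.7, 8.6 and 19.2 CPM. At 6 h it was all but absent, below the 1.69, 1.84 and 1.93 CPM of nitrate-resupplied plants. Mp8g09870 had 2.8, 6.93 and 7.58 CPM at 24 h of sucrose resupply, 31.4, 35.7 and 39.8 CPM at 24 h of nitrate resupply and 47.9, 51.8 and 62.7 CPM in control. It was lower after sucrose than after nitrate resupply at 24 h by a log2 difference of -2.60 ± 0.34 (SE, edgeR adjusted p = 5.02e-06), and it rose by 2.93 ± 0.36 from 6 to 72 h of sucrose resupply (adjusted p = 4.17e-08).

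The mutant libraries had no part in choosing the genes, and sucrose starvation lowered most of the genes in them too. Of 31 genes that passed the filter on low counts, 23 fell in sucrose-starved Mpcsd-2, 27 in Mperf20-21 and 20 in Mphd9-14, and 0 rose in any of them (edgeR adjusted p under 0.05). In each line 0 were higher at an unadjusted edgeR p under 0.05 and 0 by DESeq2. Among all 13162 genes tested, 10.9%, 6.96% and 9.99% fell and 15.3%, 8.38% and 12.4% rose, 26.2%, 15.3% and 22.4% in either direction. In all 3 mutants 16 genes fell, and 29 of 31 had a fitted change below 0 in every mutant. The shares of all genes that did so in all 3 mutants were not counted. The median log2 change was -0.92 in Mpcsd-2, -1.35 in Mperf20-21 and -0.98 in Mphd9-14, and the medians over all genes lay within 0.0125 of 0. MpSUVR4 did not pass the filter.

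Which libraries entered mattered for the count. For Mpcsd-2 it was 14 without control replicate 2, and 6 when only the 6 libraries of the contrast were fitted. For Mperf20-21 it was 15 without sucrose-starved replicate 1, which leaves a lone library assumed to vary like the other groups. Whichever 1 library was left out, 13 calls were kept in Mpcsd-2, 13 in Mperf20-21 and 15 in Mphd9-14. The summed level of 9 markers of dividing cells was also lower under sucrose starvation, at 44.4 to 92.8 CPM in starved and 120 to 156 CPM in control Mpcsd-2, 84.6 to 96.7 and 117 to 153 CPM in Mperf20-21, 70.7 to 124 and 122 to 155 CPM in Mphd9-14, and 96.5 to 125 and 186 to 199 CPM in Tak-1. None of the 9 was at 0 in every library of a group, but MpCYCB_2 was at 0 in single libraries, with 0, 0 and 0.124 CPM in sucrose-starved and 0, 0 and 0.176 CPM in control Mpcsd-2. The 3 oil body markers summed to 16.3 to 35.9 CPM in sucrose-starved and 35.2 to 42.6 CPM in control Mpcsd-2, 44 to 44.9 CPM in starved and 55.5 to 66.9 CPM in control Mperf20-21, and 32.5 to 39.2 CPM in starved and 46 to 61.8 CPM in control Mphd9-14. Other markers were higher. MpRBCS had 580 to 691 CPM in starved and 534 to 578 CPM in control Mpcsd-2. In Mphd9-14 it had 463 to 482 and 401 to 425 CPM, and in Mperf20-21 its ranges overlapped. MpNOP1 had 112 to 134 CPM in starved and 95.5 to 105 CPM in control Mperf20-21. In Mphd9-14 it had 113 to 131 and 90.5 to 102 CPM, and in Mpcsd-2 its ranges overlapped. The part of these markers in the result was not tested.

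**Figure D3:**
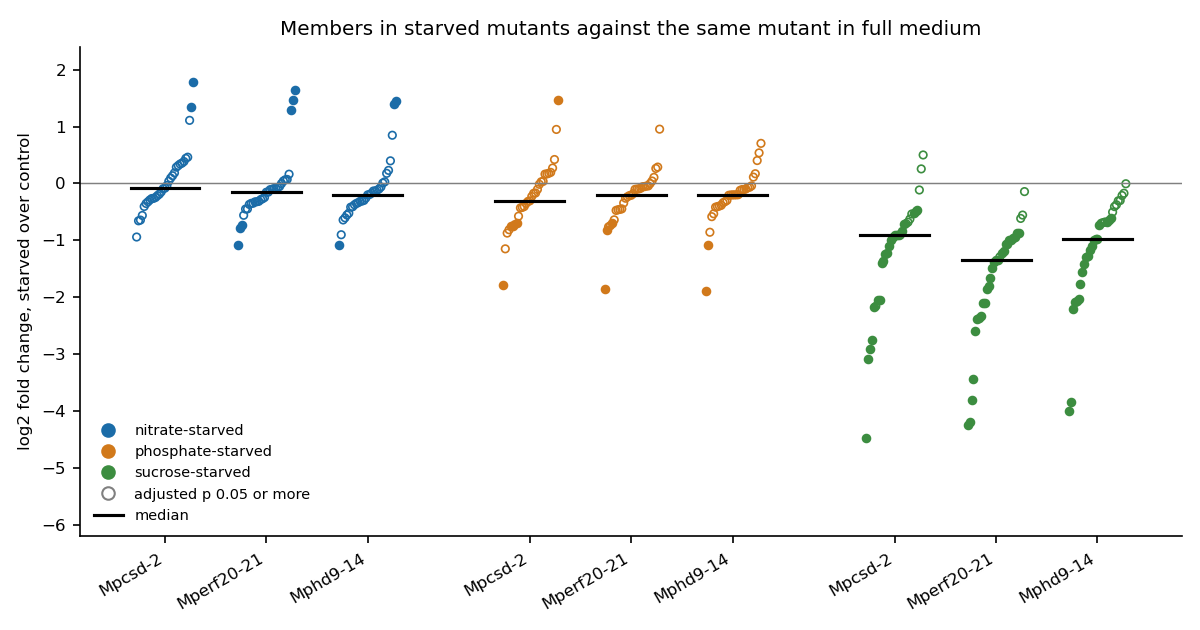
Log2 fold change of starved over control plants of the same mutant for the 31 genes tested (points, filled where the edgeR adjusted p was under 0.05, bars for medians). Nearly all sucrose points lie below 0, with medians of -0.92, -1.35 and -0.98, and the medians are closer to 0 for phosphate (-0.31, -0.21 and -0.20) and nitrate (-0.08, -0.15 and -0.20). Mp1g07680 is left out of the phosphate points because its starved counts were near 0.

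Mp5g04350 fell most in sucrose-starved Mpcsd-2 and Mphd9-14. It had 0.15, 0.413 and 0.484 CPM in starved and 6.28, 6.66 and 13.9 CPM in control Mpcsd-2, a log2 change of -4.47 ± 0.44 (SE, edgeR adjusted p = 3.95e-08). It changed by -4.20 ± 0.48 in Mperf20-21 (adjusted p = 6.34e-07) and by -4.01 ± 0.36 in Mphd9-14 (adjusted p = 3.76e-09). Starved and control libraries did not overlap in any of the 3 lines.

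Mp2g18760 had 1.07, 1.11 and 1.13 CPM in sucrose-starved and 14.4, 18 and 18.4 CPM in control Mphd9-14, a log2 change of -3.84 ± 0.48 (edgeR adjusted p = 1.09e-06). Mp6g19490 had 5.16, 5.91 and 7.96 CPM in sucrose-starved and 37.6, 37.8 and 67.3 CPM in control Mpcsd-2, a change of -2.75 ± 0.20 (adjusted p = 3.24e-10). It changed by -2.60 ± 0.24 in Mperf20-21 (adjusted p = 2.57e-08) and by -2.03 ± 0.20 in Mphd9-14 (adjusted p = 2.2e-08). These genes kept their calls whichever library was left out.

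MpCupin83 fell in all 3 sucrose-starved lines. It had 2.57 and 4.48 CPM in starved and 43.2, 46.7 and 62.4 CPM in control Mperf20-21, a log2 change of -3.80 ± 0.70 (edgeR adjusted p = 0.000373). In Mphd9-14 it changed by -2.21 ± 0.54 (adjusted p = 0.00315) and in Mpcsd-2 by -2.05 ± 0.52 (adjusted p = 0.00445). In Mpcsd-2 the control libraries had 18.4, 22.1 and 95 CPM, and the call was lost without the highest of them, replicate 2.

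Of the genes for transport, MpHA5 fell in sucrose-starved Mpcsd-2 (-0.71 ± 0.19, edgeR adjusted p = 0.00764) and Mperf20-21 (-0.88 ± 0.21, adjusted p = 0.00456), the second call being lost without either starved library. MpHA11 fell in Mpcsd-2 (-1.22 ± 0.25, adjusted p = 0.000717) and Mphd9-14 (-1.0 ± 0.25, adjusted p = 0.00395). Among the 15 proton pump genes tested, 4, 3 and 3 fell in sucrose-starved Mpcsd-2, Mperf20-21 and Mphd9-14 (all genes 10.9%, 6.96% and 9.99%), and the others were not called. MpMATE9 and MpABCG13 fell in Mpcsd-2 and Mperf20-21 and were not called in Mphd9-14. Each of these 4 calls was lost without 1 of several libraries, Mpcsd-2 control replicate 2 among them for both genes and Mperf20-21 sucrose-starved replicate 2 for both. Among 27 polyphenol oxidase genes tested in sucrose-starved plants, 4 fell and 5 rose in Mpcsd-2 (all genes 10.9% and 15.3%). In Mperf20-21 8 fell and 4 rose (6.96% and 8.38%), and in Mphd9-14 3 fell and 7 rose (9.99% and 12.4%). MpPPO8 itself fell in Mperf20-21 (-1.06 ± 0.25, adjusted p = 0.00338), a call lost without sucrose-starved replicate 1, and in Mphd9-14 (-0.65 ± 0.23, adjusted p = 0.0426), where it held without control replicate 1 alone.

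Phosphate starvation lowered few of the genes in the mutants: 5 in Mpcsd-2, 4 in Mperf20-21 and 3 in Mphd9-14 fell, where 1.4%, 0.767% and 0.312% of all genes fell (edgeR adjusted p under 0.05). The median log2 changes were -0.31, -0.21 and -0.20, with medians over all genes of -0.00959, -0.00232 and -0.00233. In every mutant 20 of 31 genes had a fitted change below 0, and the share of all genes that did was not counted. A fit of the 6 libraries of each contrast alone gave 3, 8 and 6 genes. In Mpcsd-2 1 gene rose, Mp4g08480 (all genes 6.4%), by 1.46 ± 0.36 (SE, adjusted p = 0.00734), and this call was lost without phosphate-starved replicate 2. In Mperf20-21 and Mphd9-14 0 rose (3.81% and 1.99%), with 1 and 2 genes higher at an unadjusted edgeR p under 0.05 and 0 by DESeq2. Whichever 1 library was left out, 2 of 6, 3 of 4 and 2 of 3 calls in either direction were kept (all genes called, 7.8%, 4.57% and 2.3%). Mp1g07680 and Mp4g04160 fell in all 3 lines, and kept their calls whichever library was left out.

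Mp1g07680 was close to silent under phosphate starvation in every genotype. It had 0, 0 and 0 reads in phosphate-starved and 359, 189 and 313 reads in control Mpcsd-2. In Mperf20-21 it had 0, 3 and 3 reads in starved and 326, 418 and 408 reads in control plants, and in Mphd9-14 1, 0 and 1 reads in starved and 231, 145 and 298 reads in control plants. The Tak-1 libraries of the rule had 1, 0 and 3 reads in starved and 152, 127 and 147 reads in control plants. Relative to library totals it was at least 309-fold lower in starved Mpcsd-2, taking 3 reads over the group as the floor. It was 143-fold lower in Mperf20-21 (exact 95% counting interval 65.4 to 390) and 299-fold lower in Mphd9-14 (82.3 to 2470). The intervals and the floor cover counting error only.

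**Figure D4:**
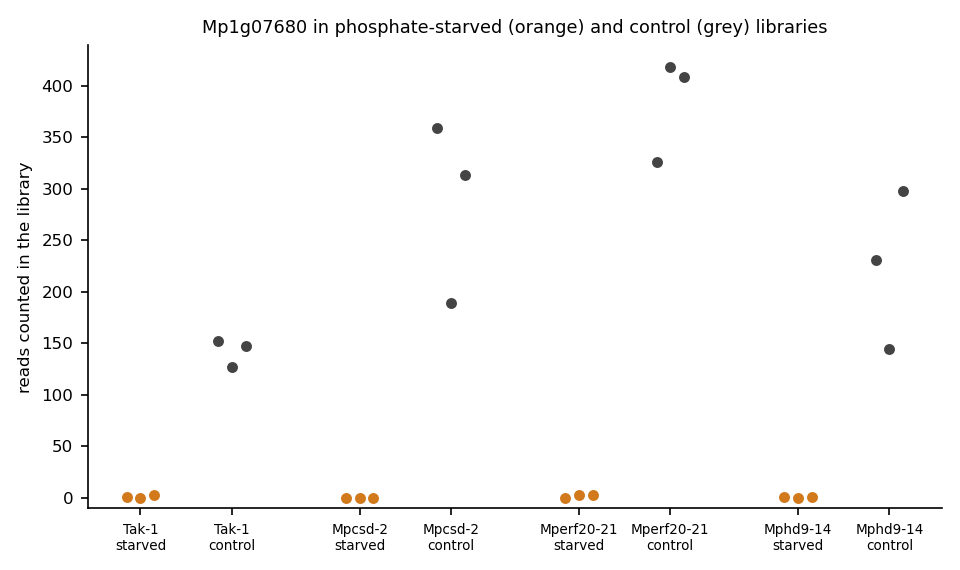
Reads of Mp1g07680 in each phosphate-starved (orange) and control (grey) library of Tak-1 and the 3 mutants, on a linear axis. The 12 starved libraries hold 0 to 3 reads each, and the 12 control libraries 127 to 418.

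The same gene was far less affected by the other starvations. In nitrate-starved Mpcsd-2, Mperf20-21 and Mphd9-14 it averaged 9.23, 14.8 and 9.94 CPM and in sucrose-starved plants of these lines 10.1, 5.76 and 7.52 CPM, against 12.6, 14.7 and 10.4 CPM in control plants. It was not called in any of these 6 comparisons. In resupplied Tak-1 it had 0.601, 1.05 and 1.38 CPM at 6 h of phosphate and 1.1, 3.69 and 7.86 CPM at 72 h, against 4.8, 5.3 and 5.59 CPM in control, so that the 72 h libraries spread around the control range.

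Mp4g04160 also fell most under phosphate starvation. It had 40.8, 45 and 54.1 CPM in phosphate-starved and 157, 159 and 172 CPM in control Mpcsd-2, a log2 change of -1.79 ± 0.15 (SE, edgeR adjusted p = 5.67e-10). It changed by -1.85 ± 0.16 in Mperf20-21 (adjusted p = 1.41e-09) and by -1.90 ± 0.16 in Mphd9-14 (adjusted p = 9.42e-10), so the 3 estimates lay within their errors of each other. Under sucrose starvation it changed by -0.90 ± 0.15, -1.35 ± 0.18 and -1.42 ± 0.16 in the same 3 lines. Under nitrate starvation it was not called in any line, with 123, 123 and 129 CPM in starved Mpcsd-2.

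Nitrate starvation lowered the fewest genes in the mutants. In Mpcsd-2 0 of 31 fell (all genes 0.167%), with 5 lower at an unadjusted edgeR p under 0.05 and 3 by DESeq2. In Mperf20-21 3 fell (0.805%), MpMATE9, Mp7g18470 and Mp6g00500, and in Mphd9-14 1 fell (0.144%), Mp6g00500. The Mperf20-21 count was 0 without control replicate 2 and 1 without nitrate-starved replicate 1 or replicate 2, and the Mphd9-14 count was 7 with the 6 libraries of the contrast alone. Mp6g00500 had 32.1, 42.3 and 44.4 CPM in nitrate-starved and 82.2, 82.6 and 89 CPM in control Mphd9-14, a log2 change of -1.08 ± 0.19 (SE, edgeR adjusted p = 0.00208).

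Some genes went the other way. Mp4g08480, lowered in nitrate-starved Tak-1, rose in all 3 nitrate-starved mutants, by 1.78 ± 0.36 in Mpcsd-2 (edgeR adjusted p = 0.00378), 1.47 ± 0.32 in Mperf20-21 (adjusted p = 0.00593) and 1.45 ± 0.31 in Mphd9-14 (adjusted p = 0.0133). It had 28.2, 28.5 and 29.8 CPM in starved and 8.59, 10.4 and 12.9 CPM in control Mphd9-14, against 1.49, 1.94 and 1.95 CPM in starved and 3.42, 4.36 and 8.52 CPM in control Tak-1. Higher calls numbered 2 in Mpcsd-2, 3 in Mperf20-21 and 2 in Mphd9-14 (all genes 1.68%, 2.45% and 1.07%, and in either direction 1.85%, 3.25% and 1.22%). The others were Mp7g05420 in Mpcsd-2, Mp5g24130 in Mperf20-21 and Mphd9-14, and MpHA11 in Mperf20-21. Whichever 1 library was left out, 0 of 2 calls in either direction were kept in Mpcsd-2, 2 of 6 in Mperf20-21 (Mp5g24130 and MpHA11) and 1 of 3 in Mphd9-14 (Mp6g00500). In each line the call of Mp4g08480 was lost without certain single libraries (nitrate-starved replicate 1 in Mpcsd-2, control replicate 3 in Mperf20-21, and any of control replicates 1 and 2 and nitrate-starved replicate 3 in Mphd9-14). The starved Tak-1 and starved mutant libraries belonged to separate sets, so the difference between genotypes was not tested.

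Responses were compared between the mutants in 9 contrasts. Mp7g18470 was the single gene called: its sucrose response was less negative in Mpcsd-2 than in Mperf20-21 by 1.64 ± 0.28 (SE, edgeR adjusted p = 0.0119) and than in Mphd9-14 by 1.61 ± 0.27 on the log2 scale (adjusted p = 0.00714). Of all 13162 genes, 0.0304% and 0.076% were called higher in these contrasts. It had 44.3, 54.6 and 70.4 CPM in sucrose-starved and 76.6, 83.6 and 97.6 CPM in control Mpcsd-2. It had 15.6 and 15.8 CPM in starved and 65.4, 68.9 and 78.4 CPM in control Mperf20-21, and 5.67, 10.4 and 15.6 CPM in starved and 46.5, 47.9 and 50.2 CPM in control Mphd9-14. The call against Mperf20-21 was lost without either sucrose-starved library of that line, and 3 genes were called without sucrose-starved Mpcsd-2 replicate 1. The call against Mphd9-14 was lost when only the groups compared were fitted. In the other 7 contrasts 0 genes were called by edgeR, with 0 to 5 genes at an unadjusted p under 0.05 and 0 or 1 by DESeq2.

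In full medium, without starvation, many of the genes were lower in the mutants than in Tak-1. Of 30 tested, 21 were lower and 4 higher in Mpcsd-2, 14 lower and 4 higher in Mperf20-21, and 19 lower and 3 higher in Mphd9-14 (edgeR adjusted p under 0.05). Calls were common among all 12565 genes tested: 28.5% lower and 28.3% higher in Mpcsd-2, 20.4% and 21% in Mperf20-21, and 22% and 21.7% in Mphd9-14. The median log2 difference was -1.28 in Mpcsd-2, -0.36 in Mperf20-21 and -0.59 in Mphd9-14, with medians over all genes of -0.0217, -0.00546 and -0.016. In all 3 mutants 12 genes were lower and 1 was higher, and the matching shares of all genes were not counted. Whichever 1 library was left out, 21 of 25, 11 of 18 and 16 of 22 calls were kept (all genes called in either direction, 56.8%, 41.3% and 43.7%). The summed dividing-cell markers were 145 to 164 CPM in Mpcsd-2, 210 to 233 CPM in Mperf20-21, 153 to 180 CPM in Mphd9-14 and 196 to 216 CPM in Tak-1. The summed level of 3 oil body markers was 22.6 to 26.8 CPM in Mpcsd-2, 70.3 to 75 CPM in Mperf20-21, 54.9 to 69 CPM in Mphd9-14 and 77.5 to 82.1 CPM in Tak-1, and that of 3 germ cell markers was 92.1 to 103 CPM in Mpcsd-2, 112 to 119 CPM in Mperf20-21, 111 to 113 CPM in Mphd9-14 and 158 to 171 CPM in Tak-1. Nearly all of the germ cell sum came from MpRKD, as MpDUO1 reached at most 0.769 CPM and MpBZR3 at most 0.415 CPM, the second being at 0 in every Mphd9-14 and Tak-1 library. MpRBCS had 401 to 426 CPM in Mpcsd-2, 414 to 457 CPM in Mperf20-21, 433 to 458 CPM in Mphd9-14 and 537 to 567 CPM in Tak-1. The oil body, germ cell and MpRBCS ranges of each mutant lay below those of Tak-1. Most of the oil body sum came from MpC1HDZ, which averaged 70.2 CPM in Tak-1 and 21.4 CPM in Mpcsd-2. Summed over 3 markers of gemma cups and gemmae, Mpcsd-2 had 47.4 to 51.2 CPM, above the 40.8 to 46.3 CPM of Tak-1. Mperf20-21 had 37.8 to 44.4 CPM and Mphd9-14 35 to 45 CPM of these, overlapping Tak-1. The part of these markers in the result was not tested.

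**Figure D5:**
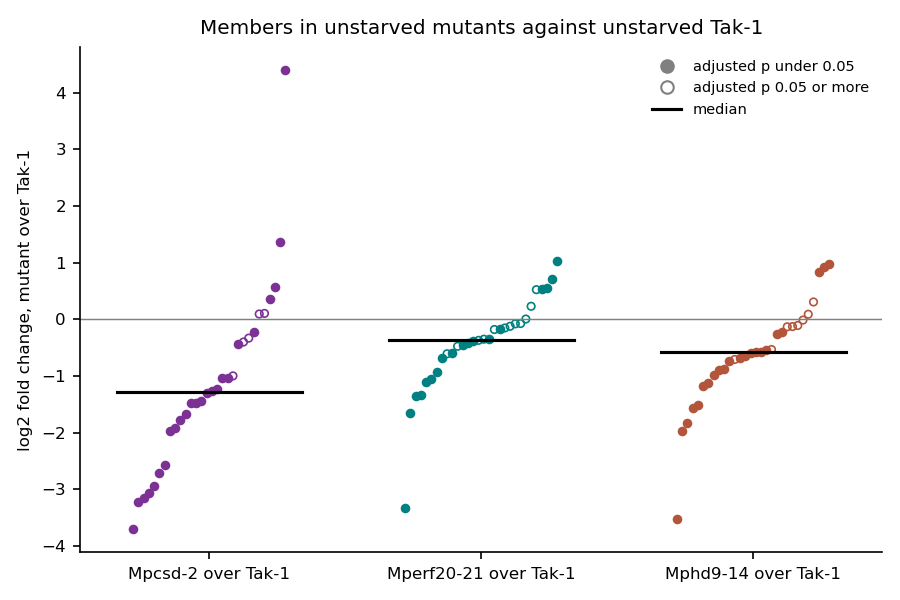
Log2 difference of each mutant over Tak-1 in full medium for the 30 genes tested (points, filled where the edgeR adjusted p was under 0.05, bars for medians). Mpcsd-2 has the lowest median, -1.28, and the highest single point is MpHA11 in Mpcsd-2.

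Mp4g04160 had the lowest log2 difference of the 30 in Mperf20-21 and Mphd9-14. It had 43.6, 44.9 and 49.4 CPM in Mpcsd-2, 23, 30.6 and 33.5 CPM in Mperf20-21 and 21.1, 24.7 and 27.2 CPM in Mphd9-14, against 281, 295 and 298 CPM in Tak-1. The log2 differences were -2.58 ± 0.10, -3.33 ± 0.11 and -3.52 ± 0.11 (SE, edgeR adjusted p = 4.32e-13, 1.59e-13 and 8.39e-14). Every mutant library of this set lay far below every Tak-1 library of the set. In the starved-mutant set, full-medium controls had 157 to 172 CPM in Mpcsd-2, 73.6 to 81 CPM in Mperf20-21 and 61.8 to 90.4 CPM in Mphd9-14. Time-course control libraries of Tak-1 had 108 to 129 CPM. The level of Mp4g04160 in the same line and medium thus differed between the sets.

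Mp8g09870 and MpCupin83 were lowest in Mpcsd-2. Mp8g09870 had 2.05, 2.15 and 3.06 CPM in Mpcsd-2 and 29.8, 34.7 and 35.9 CPM in Tak-1, a log2 difference of -3.71 ± 0.13 (SE, edgeR adjusted p = 1.34e-13). MpCupin83 had 4.16, 4.94 and 5.2 CPM in Mpcsd-2 and 43, 44 and 55.4 CPM in Tak-1, a difference of -3.23 ± 0.14 (adjusted p = 1.63e-12).

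MpHA5 was the gene higher in all 3 mutants, by 1.37 ± 0.18 in Mpcsd-2 (SE, edgeR adjusted p = 3.26e-06), 0.56 ± 0.18 in Mperf20-21 (adjusted p = 0.0199) and 0.92 ± 0.18 in Mphd9-14 (adjusted p = 0.00046). The Mperf20-21 call was lost without its replicate 3 or without Tak-1 replicate 1 or 2. MpHA11 had 73, 90.9 and 114 CPM in Mpcsd-2 and 2.96, 5.1 and 5.95 CPM in Tak-1, a difference of 4.40 ± 0.20 (edgeR adjusted p = 2.56e-12). It had 3.82, 3.96 and 5.48 CPM in Mperf20-21 and was not called there, at -0.08 ± 0.24 (adjusted p = 0.823). In Mphd9-14 it had 2.11, 3.07 and 3.17 CPM and was lower than in Tak-1, at -0.68 ± 0.26 (adjusted p = 0.0454), a call lost without any 1 of the 3 Mphd9-14 libraries or without Tak-1 replicate 1 or 3. MpHA11 thus stood far above Tak-1 in Mpcsd-2, while its ranges overlapped Tak-1 in Mperf20-21 and Mphd9-14. Among 14 proton pump genes tested, 9 were higher and 1 lower in Mpcsd-2 (all genes 28.3% and 28.5%), 3 higher and 3 lower in Mperf20-21 (21% and 20.4%), and 4 higher and 3 lower in Mphd9-14 (21.7% and 22%). In the starved-mutant set, the full-medium Mpcsd-2 controls had 7.37, 11.1 and 14.2 CPM of MpHA11, so the same line in the same medium differed between the sets.

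The sets differed in other genes too, which limits what full-medium levels can be compared across them. Tak-1 in the full-medium set, set against the time-course control, had a ratio of 0.6 or less for 16 of 32 genes, with a median of 0.575, where 8.24% of the 10074 genes had such a ratio and the median was 1.02. The ratios ran up to 3.77 for Mp7g18470, which had 217 ± 7.31 CPM in that Tak-1 set and 56.8 ± 9.66 CPM in the time-course control (SD, n = 3 each). Mp3g21990 had 0.0422, 0.0496 and 0.278 CPM in that Tak-1 set and 40.3, 44.1 and 56.1 CPM in the time-course control, and it stayed below 2 CPM in all 35 libraries of the starved-mutant set. MpSUVR4 had 0, 0.127 and 0.149 CPM in that Tak-1 set and 4.36, 5.25 and 7.23 CPM in the time-course control, and it reached at most 0.274 CPM in the starved-mutant set. The labels do not say if the sets were grown or processed together, so growth, stock and processing cannot be told apart here and no test was made.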

How the data were processed

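RNA was read from whole gemmalings as directional poly(A) libraries. The deposited tables hold raw read counts per gene, made with STAR 2.7 per the submitters' processing notes, which also name DESeq2. The counter and its strand setting are not given in the sources used here. Of 19355 gene IDs, 17384 matched the RefSeq name table (assembly MpTak2_v7.1), which was used for names and gene order only. From the counts, CPM were computed with the column total, and edgeR 4.0.16 in R 4.3.3 fitted each of 3 tables whole (TMM scaling, low-count filter by group, quasi-likelihood test, Benjamini-Hochberg adjustment over all genes tested), with limma 3.58.1 loaded. All groups of a table share 1 estimate of the spread. DESeq2 1.42.0, another scaling, no filter, a replicate block, the compared groups alone and leaving out single libraries were alternatives. The tests were also run on counts simulated independently for each library, which cannot show how outlying libraries affect the calls. No column lacked a sample, and no libraries were identical. Genes were named where they had a symbol, were among the 8 highest in control, had 1 of the 2 smallest adjusted p-values of a comparison in a direction, lay nearest the rule's limit, or had the 3 highest or lowest ratios at 72 h; any further gene was named after its values were seen. The members and the gene lists were chosen with earlier results of these data known. Tables were normalised separately and no test crosses them.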

Additional observations from a re-analysis of the deposited data

Results flagged for a closer look

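The sucrose response of Mp7g18470 differed between mutants by a test of the difference itself. The log2 change from control to sucrose starvation was less negative in Mpcsd-2 than in Mperf20-21 by 1.64 and than in Mphd9-14 by 1.61 (interaction contrasts in edgeR over all genes of the table, adjusted p = 0.0119 and 0.00714 for Mp7g18470). The contrast with Mperf20-21 rests on its 2 sucrose-starved libraries, and without either of them it was not called. The contrast with Mphd9-14 was not called when only the groups compared were fitted.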

How the results depend on the processing

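No direction was reversed under any alternative. Of 343 calls of single genes, 338 were kept by DESeq2, 342 with relative log expression scaling, 336 without the filter and 301 with the compared groups alone. Over all libraries left out in turn, 1743 of 2042 were kept. With the compared groups alone, lower genes numbered 3 (5 in the whole-table fit) in phosphate-starved and 6 (23) in sucrose-starved Mpcsd-2, 8 (4) in phosphate-starved Mperf20-21, and 7 (1) in nitrate-starved and 6 (3) in phosphate-starved Mphd9-14. The sucrose response of Mpcsd-2 against Mphd9-14 then gave 0 genes (1), and sucrose against nitrate resupply, a comparison added after the data were seen, gave 6 (11) at 6 h and 20 (13) at 24 h. DESeq2 gave 3 lower genes in nitrate-starved and 8 in phosphate-starved Mpcsd-2, 2 in nitrate-starved Mphd9-14, and 1 gene for the nitrate response of Mpcsd-2 against Mperf20-21. Without the filter, 2 genes were lower in nitrate-starved Mpcsd-2. The cause of these shifts was not tested. The rule gave 14 genes at a limit of 0.5 and 101 at 0.7.

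The deviations of same-numbered replicates had correlations from -0.332 to 0.333. In each comparison the lowest of these correlations was 0.0262 or less, so the numbers were not taken to pair samples. A replicate block kept 338 of 343 calls and gave 1 lower gene in nitrate-starved Mpcsd-2.

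With single libraries left out, lower genes ranged from 0 to 3, 4 to 7 and 14 to 24 in nitrate-, phosphate- and sucrose-starved Mpcsd-2, and from 0 to 2, 3 to 4 and 15 to 25 in Mperf20-21. In Mphd9-14 there were 1, 2 and 15 to 19. Genes raised in resupply ranged from 9 to 15 at 24 h and 19 to 25 at 72 h for nitrate, 3 to 6 and 10 to 14 for phosphate, and 9 to 16 and 22 to 24 for sucrose. Genes lower than in Tak-1 ranged from 18 to 21, 10 to 15 and 15 to 17. The response contrast of Mpcsd-2 with Mperf20-21 ranged from 0 to 3 genes for sucrose and 0 to 1 for nitrate. Between nutrients the ranges were 7 to 13 (sucrose and nitrate), 16 to 19 (sucrose and phosphate) and 6 to 14 (nitrate and phosphate) at 6 h, and 10 to 13, 13 to 18 and 0 to 1 at 24 h. The rule gave 24 to 44 genes. Promoter sequences were not analysed here.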
